A study of Rattus norvegicus with 8 samples.

Results

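Rat chromosomes 10 and 12 together held 679 of the 7298 glucocorticoid receptor (GR) binding regions in the merged list of strong sites, 451 on chromosome 10 and 228 on chromosome 12. The members were all regions of that list whose chromosome was 10 or 12. The authors had placed a region in the list for its maximum tag density, the height of the ChIP signal, so the strength of the members is a description and not a finding. The chromosomes themselves were picked with earlier counts from the same lists known, so their number of sites is also given as a description. The comparison was with the 6471 merged regions on the other 18 autosomes. The X chromosome, with 148 merged regions, was not part of it.

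GR is a nuclear receptor that is activated by glucocorticoids, corticosterone in the rat, and then binds DNA at glucocorticoid response elements or at parts of them. It mostly reaches sites that are already open in the chromatin of a given cell type. In the hippocampus it mediates the response to the high corticosterone levels of stress and of the daily peak. In ChIP-seq, DNA recovered with antibodies against GR is sequenced, and places where tags pile up above the input DNA are called as peaks.

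All animals were male Sprague-Dawley rats, 9 weeks old, adrenalectomized so that they made no corticosterone of their own. Replacement corticosterone in their drinking saline was withdrawn 12 hours before the experiment, and every rat was then infused with corticosterone through a jugular cannula for 30 minutes. The nonstressed control (NSC) group stayed in the home cage during the infusion, and the stressed group was restrained for the same 30 minutes. Each group had 2 GR ChIP libraries and 2 input libraries from whole hippocampus, which makes 8 libraries, and each replicate was a pool of rats. Whole hippocampus mixes neurons and glia, so no peak can be given to a cell type, and the lists hold no expression values by which the tissue could be checked. The design asked whether restraint changes where GR binds when the hormone is matched. The files give 1 combined tag density per peak and group, with no value per replicate and no read counts. No difference between the groups could therefore be tested here, the depth behind each value is unknown, and the intervals below run over regions only. The study itself compared peak intensities with both replicates of each group and reported no peak that differed significantly.

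The study designed primers for a GR peak in the distal promoter of Per1, a core gene of the circadian clock. Among the genes with a primer pair in its assay of nuclear factor 1, Per1 is the one that RefSeq places on chromosome 10 or 12. Pairs named for intergenic peaks carry no gene, and their chromosomes were not determined here. The pair is printed because it marks a named GR site on chromosome 10, in lower case and 5′ to 3′. The sequences of the regions themselves were not used here.
Per1 forward: ccaaggctgagtgcatgtc
Per1 reverse: gcggccagcgcacta
Thra, the gene of thyroid hormone receptor alpha, is also on chromosome 10 in the RefSeq table of the GRCr8 assembly. The lists use the rn5 assembly, in which no gene was located here, so the regions below are given by position and not by gene.

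Strong GR sites were dense on both chromosomes. Chromosome 12 held 4.22 merged regions per Mb and chromosome 10 held 4.04, the highest and second highest values of the 20 autosomes. The other 18 autosomes held 2.51 per Mb together and ranged from 1.68 on chromosome 4 to 3.21 on chromosome 19. Both values thus lay outside the range of the others, at 1.68 and 1.61 times the pooled density. These lengths include stretches in which the lists have no peak. Of the windows of 5 Mb on the other autosomes, 18 held no peak in any list, 12 of them in a row on chromosome 4, and chromosomes 10 and 12 had no such window. Without them the other autosomes held 2.60 merged regions per Mb and ranged from 2.15 on chromosome 2 to 3.45 on chromosome 19, still below both chromosomes. A merged region occurred on average every 237 kb on chromosome 12 and every 248 kb on chromosome 10, against every 399 kb on the other autosomes. Together the 2 chromosomes made up 6.04% of autosomal length, 9.50% of autosomal merged regions and 15 of the 100 strongest. Of the strongest 1000, they held 129.

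Weak GR peaks showed the opposite. Outside the merged list, the NSC group had 243 peaks on chromosome 10 and 80 on chromosome 12, or 2.18 and 1.48 per Mb, against 4.79 per Mb on the other autosomes. The stressed group had 291 and 96 such peaks, or 2.61 and 1.78 per Mb, against 6.12. In both groups chromosome 12 was the lowest of the 20 autosomes and chromosome 10 the second lowest, and the next chromosome up, 19, had 3.49 NSC peaks and 3.36 stressed peaks per Mb. The 2 chromosomes held 2.55% of the autosomal NSC peaks outside the list and 2.39% of the stressed ones. Peaks in and out of the list add up to fewer peaks per Mb than on most autosomes, at 5.49 NSC and 5.97 stressed on chromosome 10 and 4.99 and 5.29 on chromosome 12, where the other autosomes had 6.67 and 8.23.

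**Figure D1:**
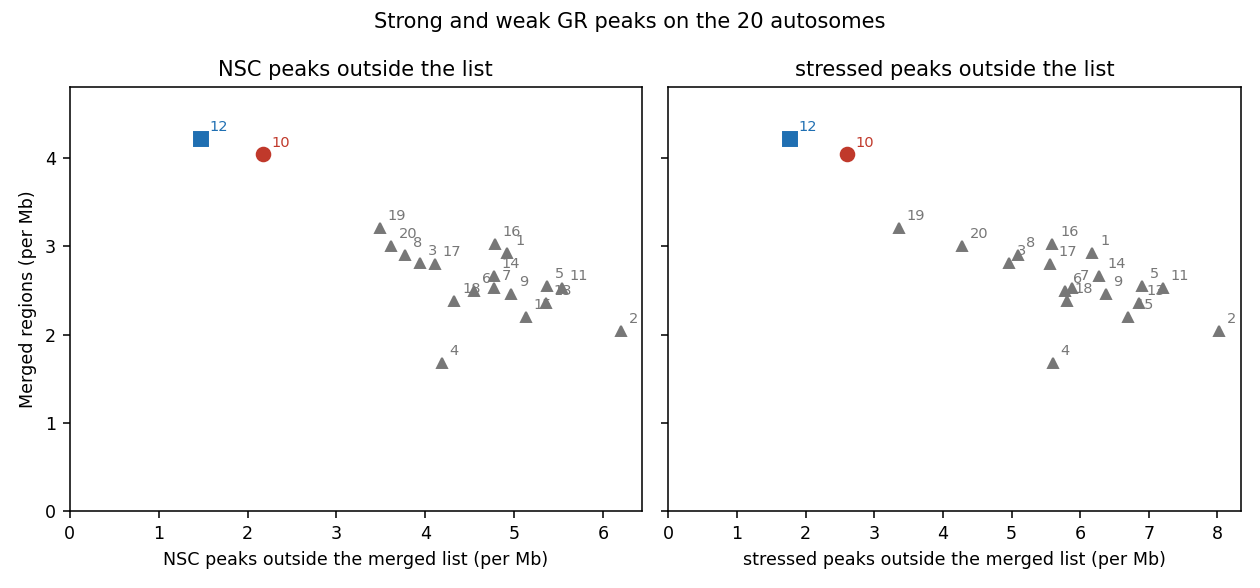
Merged regions per Mb (vertical) against peaks outside the merged list per Mb (horizontal) for each of the 20 autosomes, with NSC peaks on the left and stressed peaks on the right; each symbol is 1 chromosome, labelled with its number. Chromosomes 10 and 12 sit at the upper left of both panels, above 4 merged regions per Mb and below 3 peaks outside the list per Mb.

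The other autosomes followed the same slope in part. Over those 18 chromosomes, merged regions per Mb and peaks outside the list per Mb had a Spearman's rho of -0.53 for NSC peaks and -0.64 for stressed peaks (Pearson's r -0.50 and -0.62). Without the empty windows rho was -0.73 and -0.80. These are descriptions over chromosomes that share their libraries, and no p-value is given.

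A peak on either chromosome was therefore more often in the merged list. Being in it means sharing at least 1 bp with a merged region, so a weak peak counts where only the other group's peak was strong. On chromosome 10, 370 of 613 NSC peaks lay in the merged list (60.4%, 95% Wilson interval 56.4% to 64.2%), and on chromosome 12, 190 of 270 did (70.4%, 64.7% to 75.5%). On the other autosomes the share was 28.3% (27.6% to 29.0%), and the highest single one was 42.0% on chromosome 19. For stressed peaks the shares were 56.4% on chromosome 10, 66.4% on chromosome 12 and 25.6% on the other autosomes. The median tag density over all NSC peaks was 13.9 on chromosome 10, 16.4 on chromosome 12 and 6.85 on the other autosomes. Over all stressed peaks it was 13.1, 15.6 and 6.94. Tag density is in the authors' input-normalized units.

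The change from sparse to dense fell at a tag density of about 12. Among NSC peaks with a tag density under 5, chromosome 10 had 33 peaks and chromosome 12 had 9, which is 0.38 and 0.21 times the density per Mb of the other autosomes. Between 7 and 9 the ratios were 0.41 and 0.31. Between 12 and 15 they were 1.85 and 1.63, and at 30 or more, where chromosome 10 had 70 NSC peaks and chromosome 12 had 40, they were 1.97 and 2.33. Stressed peaks gave the same shape, with 0.45 and 0.33 under 5, 0.42 and 0.24 between 7 and 9, 1.63 and 1.47 between 12 and 15, and 2.22 and 2.44 at 30 or more. In each of the 4 classes under 9 the chromosomes ranked second lowest and lowest of the 20 autosomes, and in each of the 4 classes from 12 upwards they filled the first 2 places, in both groups. Without the empty windows these places were kept except for stressed peaks between 12 and 15, where chromosome 12 came 3rd at 1.42 times the density of the others. The class from 9 to 12 lies between, with ratios of 0.94 and 0.53 for NSC peaks and 0.45 and 0.67 for stressed peaks.

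**Figure D2:**
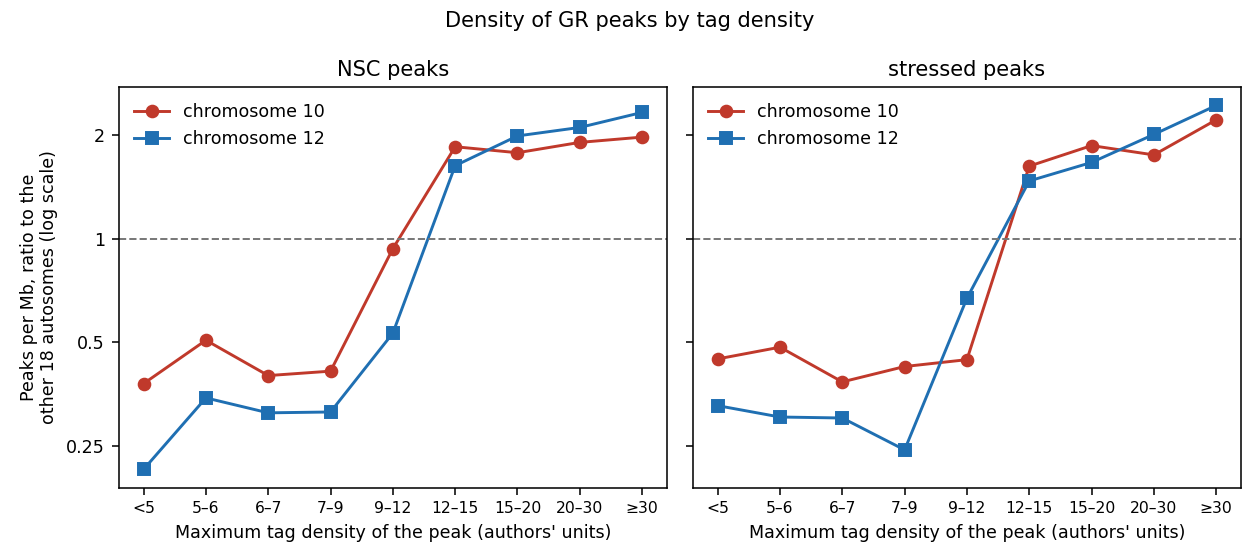
Peaks per Mb on chromosome 10 (circles) and chromosome 12 (squares) divided by peaks per Mb on the other 18 autosomes (vertical, log scale), for peaks sorted into 9 classes of maximum tag density (horizontal), with NSC peaks on the left and stressed peaks on the right; the dashed line marks equal density. All 4 lines lie at or under 0.51 for tag densities below 9 and at or above 1.47 for those of 12 or more.

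The peaks between 9 and 12 also differed in z-score, the peak caller's measure of enrichment over the local background. On chromosomes 10 and 12 their median z-score was 10.3 in NSC and 12.7 in stressed rats, while on the other autosomes it was 25.1 and 36.7. From a tag density of 12 upwards the medians were close, for example 10.5 and 10.8 between 12 and 15 in the NSC group. Outside the list, the median tag density of peaks was similar wherever they lay. The median NSC tag density there was 6.15 on chromosome 10, 6.36 on chromosome 12 and 6.15 on the other autosomes, and the median NSC z-score was 33.6, 30.2 and 33.0. Inside the list the median NSC z-score was lower, at 14.6, 15.7 and 15.5. Across the classes of tag density z-score had no single direction. On the 2 chromosomes the NSC median z-score was 20.8 under a tag density of 5 and 42.6 between 7 and 9, and it was 10.5 between 12 and 15 and 32.5 at 30 or more. NSC peaks outside the list had a median length of 304 bp on either chromosome and 301 bp elsewhere. For stressed peaks outside the list it was 294 bp on chromosome 10 and 287 bp elsewhere. On chromosome 12 it was 263.5 bp, the shortest of the 20 autosomes. The median z-score of these stressed peaks was 35.2 on chromosome 10, 29.8 on chromosome 12 and 32.5 elsewhere.

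Genes per chromosome gave another scale for these counts. The GRCr8 RefSeq table assigns 1788 protein-coding genes to chromosome 10 and 672 to chromosome 12, together 11.1% of those on the autosomes. Per 100 protein-coding genes, merged regions numbered 25.2 on chromosome 10, the lowest of the 20 autosomes, and 33.9 on chromosome 12, the 10th highest, where the other autosomes had 32.9 together and 26.4 to 45.3 singly. Peaks outside the list remained the fewest on this scale too, at 13.6 NSC peaks on chromosome 10 and 11.9 on chromosome 12 per 100 genes, against 62.7 on the other autosomes. The part of gene content in the density of strong sites was not tested.

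The strength of the members themselves is part of how they were chosen. Tag density in the merged regions of chromosome 10 ran from 9.52 to 71.9 with a median of 19.6 (95% interval from order statistics 18.7 to 20.4). On chromosome 12 it ran from 9.42 to 66.6 with a median of 20.3 (18.5 to 23.1), and on the other autosomes the median was 17.8. A tag density of 30 or more was found in 98 regions of chromosome 10 and 51 of chromosome 12, which is 0.88 and 0.94 per Mb against 0.41 on the other autosomes. The median region was 538 bp long on chromosome 10 and 555 bp on chromosome 12, with a range of 179 to 1270 bp over both. By its values, the list holds NSC peaks from a tag density of 11.5 and stressed peaks from 9.37 upwards. At this edge, the weakest NSC peak inside it on chromosome 10 by its own value had a tag density of 11.6 and the strongest outside had 11.4. For stressed peaks on the same chromosome these were 9.52 and 9.27. On chromosome 12 they were 11.8 and 11.3 for NSC peaks and 9.42 and 9.12 for stressed peaks.

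The strongest region of chromosome 10 lay at chr10:59623528-59624789, with 67.1 in NSC and 71.9 in stressed rats. The next 2 were a close pair. At chr10:55426280-55427323 the NSC value was 63.0 and the stressed value 69.5, and at chr10:55428417-55429587 they were 62.3 and 68.7. The pair is separated by 1093 bp, so that 2 of the highest GR peaks of this chromosome stand side by side. The fourth, at chr10:52507993-52509092, had 64.6 and 68.4 and lies 29 bp from another merged region. The fifth, at chr10:37144728-37145657, had 61.2 and 68.2. All 5 were a little higher in the stressed group, by 0.083 to 0.16 on the log2 scale. None is called different here, since the lists give no value per replicate.

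On chromosome 12 the strongest region was chr12:42765274-42766442, with 64.6 in NSC and 66.6 in stressed rats. It was followed by chr12:26733025-26733577, with 47.3 in NSC and 64.6 in stressed rats, which is the widest gap of these 5 at 0.45 on the log2 scale. The third was chr12:15836693-15837331, with 57.1 and 63.8. The fourth, chr12:30767184-30768151, was higher in the NSC group, with 61.8 against 60.5. The fifth was chr12:41618943-41619936, with 48.1 and 61.0. Their z-scores differed more than their tag densities. In the NSC group the z-score was 82.7 in the strongest region, which is 1169 bp long, and 16.5 in the second, which is 553 bp long. A relation of z-score to length was not tested.

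Peaks of NSC and stressed rats were both present in 293 of the 451 merged regions on chromosome 10 (65.0%, 95% Wilson interval 60.5% to 69.2%) and in 153 of the 228 on chromosome 12 (67.1%, 60.8% to 72.9%). Over the whole merged list the share was 58.9%, and on the other autosomes it was 58.4% (57.2% to 59.6%), with 52.2% to 63.8% on single ones. An NSC peak alone was present in 75 regions of chromosome 10 and 38 of chromosome 12, 16.6% and 16.7%, against 16.3% of the whole list. A stressed peak alone was present in 83 and 37 regions, 18.4% and 16.2%, against 24.8% of the whole list. The 2 chromosomes thus had 1.06 stressed-only regions per NSC-only region, while the other autosomes had 1.53. Chromosomes 18 and 19, at 0.955 and 1.00, were lower still. The list takes stressed peaks from 9.37 but NSC peaks from 11.5, so a region between these values could be stressed-only but not NSC-only. Under a tag density of 12 the 2 chromosomes had 21 stressed-only and 2 NSC-only regions, against 691 and 68 on the other autosomes. Between 12 and 15 these were 40 and 58 against 387 and 488. Between 15 and 20 they were 43 and 46 against 386 and 430, and between 20 and 30 they were 14 and 5 against 153 and 66. The median tag density was 23.3 on chromosome 10 and 25.9 on chromosome 12 in regions with both peaks, 14.8 and 14.9 in NSC-only regions, and 15.1 and 14.6 in stressed-only regions.

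At matched tag density the shares lay close to those elsewhere. In regions of 15 to 20 both groups had a peak in 53.1% on chromosome 10, 53.3% on chromosome 12 and 51.4% on the other autosomes. In regions of 20 to 30 the shares were 90.7%, 87.7% and 85.8%, and in regions of 30 or more they were 95.9%, 100% and 97.8%. In regions of 12 to 15 they were 19.0%, 18.9% and 24.1%. In regions under 12 they were 33.3% and 40.0%, over only 21 and 15 regions, against 27.1%. Regions with a tag density under 12 made up 36 of the 679 members (5.30%) but 16.1% of the regions on the other autosomes, and 691 of those 1041 held a stressed peak only. The value of the other autosomes lay inside the Wilson interval of each chromosome in all 5 classes. How far the mix of tag densities sets the share over all regions was not tested.

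**Figure D3:**
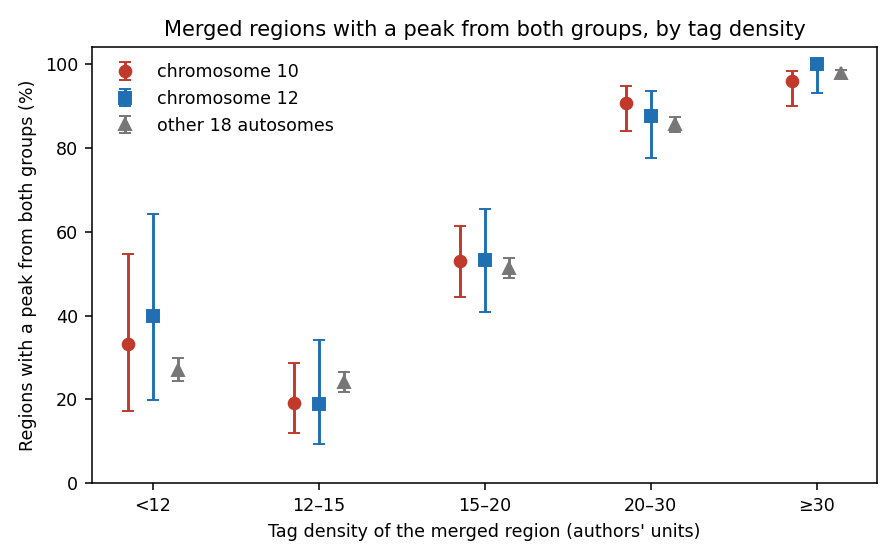
Share of merged regions in which NSC and stressed peaks were both present (vertical, %) in 5 classes of tag density (horizontal), for chromosome 10 (circles), chromosome 12 (squares) and the other 18 autosomes (triangles); bars are 95% Wilson intervals over regions. The intervals of the 3 sets overlap in every class, and the share reaches 95.9% to 100% at a tag density of 30 or more.

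Where both groups had a peak, their tag densities were similar. The median of the log2 ratio, stressed over NSC, was 0.13 (95% interval 0.10 to 0.16) on chromosome 10 and 0.12 (0.049 to 0.20) on chromosome 12, against 0.11 (0.096 to 0.12) on the other autosomes. The middle part of the ratios, between the quartiles, ran from -0.075 to 0.34 on chromosome 10 and from -0.097 to 0.35 on chromosome 12. Tag density was higher in the stressed group in 208 of 293 regions on chromosome 10 (71.0%) and in 102 of 153 on chromosome 12 (66.7%), where the whole list had 64.8%. Between the groups, log2 tag density gave a Pearson's r over regions of 0.85 on chromosome 10 and 0.87 on chromosome 12, and Spearman's rho was 0.83 and 0.84. These correlations are given without p-values, since regions share their libraries. Dividing each group by its median over all regions with peaks from both lowered the medians to 0.075 and 0.066.

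**Figure D4:**
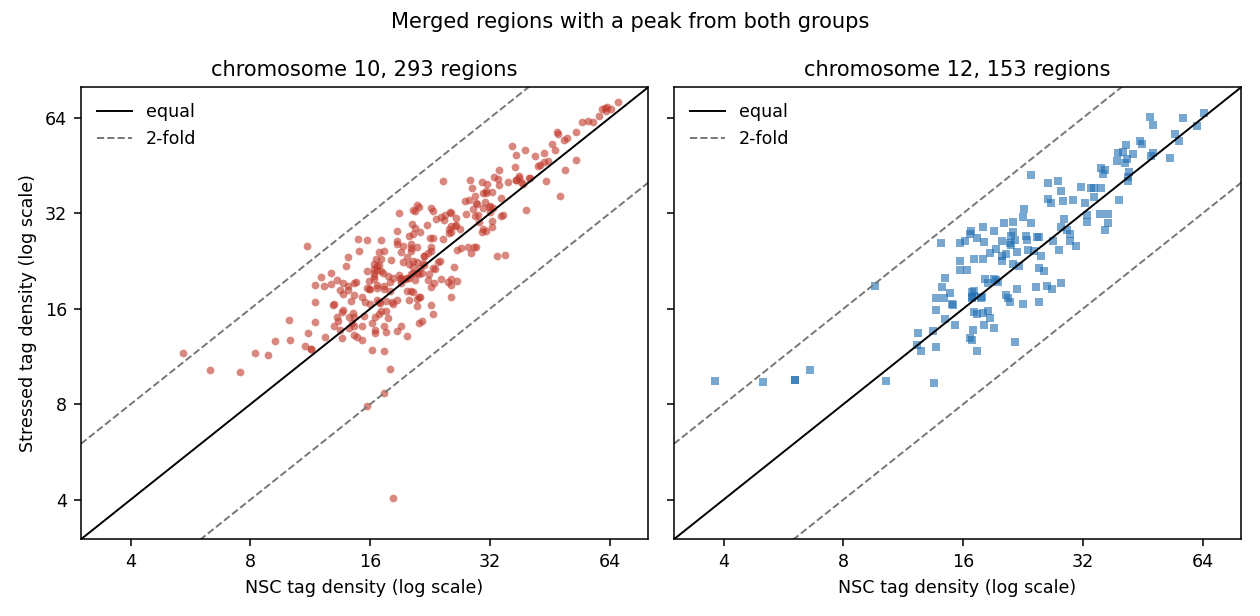
Tag density in the stressed group (vertical, log scale) against the NSC group (horizontal, log scale) in the 293 regions of chromosome 10 and the 153 of chromosome 12 with a peak from both groups; each point is 1 region, the solid line marks equal values and the dashed lines 2-fold differences. Points follow the solid line, and 5 regions in all are 2-fold or more apart.

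At least 2-fold higher tag density in the stressed group was found in 2 regions of chromosome 10 and 1 of chromosome 12, against 1.53% of the regions of the whole list with both peaks. At least 2-fold lower tag density was found in 2 regions of chromosome 10 and 0 of chromosome 12, against 0.418%. In every one of these regions the lower value was under that group's limit in the list, 11.5 for NSC and 9.37 for stressed peaks. Each was thus a member only through its higher group, and its ratio is not independent of how the members were chosen. At 1.5-fold the numbers were 21 and 15 higher, against 8.34% of such regions in the whole list, and 6 and 1 lower, against 3.07%, with no test in either case. The ratio furthest below 0 was at chr10:108591473-108592028, where tag density was 18.3 for NSC and 4.06 for stressed rats, a log2 ratio of -2.17. The stressed peak there is 252 bp long and covers 45.3% of the NSC peak. The next was at chr10:42315398-42315980, with 17.4 and 8.67, where the stressed peak covers 48.7% of the NSC peak. The third, at chr10:9654256-9655020, had 15.7 and 7.88 and high z-scores of 109 and 67.4.

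In the other direction, chr10:13632301-13632825 had an NSC tag density of 11.1 and a stressed one of 25.3. At chr10:27127659-27128309 the values were 5.43 and 11.6, and at chr10:66519136-66519819 they were 14.9 and 26.6. Each of these 3 NSC peaks lies wholly inside the stressed peak. When an overlap of at least 50% of both peaks was required, 1 region of chromosome 10 remained 2-fold higher and 0 remained 2-fold lower. On chromosome 12 the ratio furthest above 0 was at chr12:22883399-22883817, with 3.80 in NSC and 9.47 in stressed rats, followed by chr12:1487895-1488219 with 9.59 and 18.8. The third, chr12:22180480-22180731 with 5.02 and 9.42, rests on peaks that share only 19 bp. The ratios furthest below 0 on this chromosome were smaller, and began with chr12:33597061-33597692, with 21.6 and 12.6. At chr12:26090911-26091502 tag density was 24.8 and 16.8, and at chr12:46162160-46162670 it was 17.3 and 11.7.

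Strong regions with a peak from 1 group only were few here and in the whole list, where a tag density of 30 or more was found in 1.26% of NSC-only and 0.719% of stressed-only regions. On chromosome 10, 2 of the 75 NSC-only regions and 2 of the 83 stressed-only regions had a tag density of 30 or more, and on chromosome 12 none of the 38 and none of the 37 did. The strongest NSC-only region, chr10:86458752-86459254 with a tag density of 50.1, ends 11 bp before a region with a stressed peak of 49.0. Signal of the stressed group thus adjoined this region. The strongest NSC-only region of chromosome 12, chr12:26836200-26836580 with 29.0, likewise lies 27 bp from a stressed peak of 35.4. The others stood further away. At chr10:38667700-38668740, with 33.5, the nearest stressed peak was 7.87 kb away and reached 9.52. At chr10:4725943-4726549, with 25.3, it was 16.7 kb away. On chromosome 12, chr12:26443900-26444344 had 27.4 and chr12:26459131-26459568 had 18.7, and both flank the same stressed peak of 17.4, at 4.60 kb and 9.73 kb.

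Among stressed-only regions, chr10:56392324-56392777 had a tag density of 35.8 and chr10:56385377-56385632 had 25.1. These 2 lie 6691 bp apart, and the nearest NSC peak was 148 kb or more from either. The lack of an overlapping NSC peak is how these regions were picked, and such pairs were not counted over the whole list. At chr10:20366970-20367457, with 35.5, the nearest NSC peak was 14.1 kb away. On chromosome 12 the strongest were chr12:33320381-33320700 with 29.0, chr12:3926137-3926893 with 27.2 and chr12:49026114-49026722 with 23.2, each 93.2 kb or more from an NSC peak. The lists give no NSC tag density at these places, so the size of the difference is not known. Over all members with a peak from 1 group only, the opposite group had a peak closer than 1 kb in 3 of 75 NSC-only and 2 of 83 stressed-only regions on chromosome 10, and in 2 of 38 and 0 of 37 on chromosome 12. This count was not made on the other autosomes, so it shows nothing particular to the 2 chromosomes.

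Merged regions often had a close neighbour on chromosome 10. Of its regions, 25.7% had another within 10 kb, against 16.2% on chromosome 12 and 21.3% on the other autosomes, where single chromosomes ranged from 14.0% to 32.5%. The 116 regions concerned on chromosome 10 formed 53 groups, of which 44 were pairs. The largest group, of 4 regions, lay between chr10:86450510-86451009 and chr10:86466072-86466693. It starts with 39.2 in NSC and 50.6 in stressed rats, includes the NSC-only region of 50.1 described above and, beside it, chr10:86459266-86459806 with 37.1 and 49.0, and ends with 22.6 and 26.8. The largest group of chromosome 12 also had 4 regions, from chr12:5484989-5485260 to chr12:5502668-5503056. All 4 held a stressed peak only, with tag densities of 11.7, 11.2, 11.6 and 12.9. These lie near the limit of 11.5 for NSC peaks, and the list takes stressed peaks from 9.37. A region of 11.2 could thus be stressed-only but not NSC-only. Groups of this kind were not counted on the other autosomes, so nothing is drawn from this one.

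Along each chromosome, windows of 5 Mb held a median of 20 merged regions on chromosome 10 (22 windows, 5 to 36) and 20.5 on chromosome 12 (10 windows, 8 to 30). On the other autosomes the median was 11 over 506 windows, and 12 over the 488 that held a peak. Windows with 20 or more merged regions made up 12 of 22 on chromosome 10, 5 of 10 on chromosome 12 and 81 of 506 elsewhere, so the density was spread along both chromosomes and did not rest on 1 cluster. From 105 to 110 Mb on chromosome 10 there were 36 merged regions and a single peak outside the list in each group. From 25 to 30 Mb on the same chromosome there were 5 merged regions, with 40 NSC and 41 stressed peaks outside the list. On chromosome 12, the window from 40 to 45 Mb held 22 merged regions and no peak outside the list in either group, and the window from 20 to 25 Mb held 13 with 18 NSC and 30 stressed peaks outside. The end of chromosome 12, from 50 Mb to its last peak at 54.1 Mb, is shorter than a window and was left out of these counts, but held 32 merged regions, more than any full window of that chromosome. These 5 stretches were picked after their counts were seen.

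**Figure D5:**
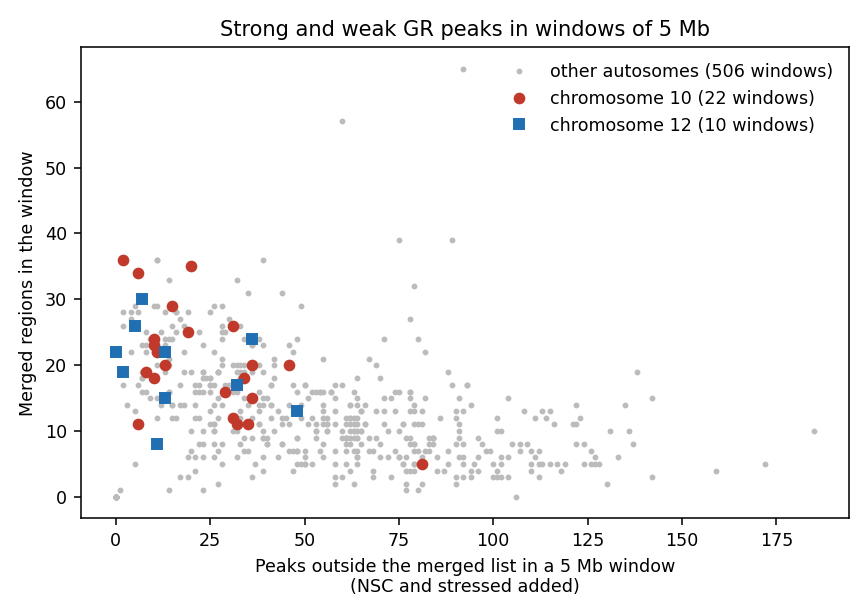
Merged regions (vertical) against peaks outside the merged list, NSC and stressed added (horizontal), in full windows of 5 Mb on chromosome 10 (circles), chromosome 12 (squares) and the other 18 autosomes (dots). Most windows of the 2 chromosomes lie at the upper left, and 18 of their 32 windows hold more merged regions than peaks outside the list, against 60 of 506 on the other autosomes.

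Within the chromosomes, windows with more merged regions tended to have fewer peaks outside the list, though chromosome 12 has only 10 windows. Over windows, Spearman's rho of merged regions with NSC peaks outside the list was -0.46 on chromosome 10, -0.30 on chromosome 12 and -0.32 on the other autosomes, and with stressed peaks it was -0.47, -0.46 and -0.36. Pearson's r was -0.55, -0.29 and -0.27 with NSC peaks, and -0.58, -0.31 and -0.31 with stressed peaks. Over the 488 windows of the other autosomes that held a peak, Spearman's rho was -0.47 with NSC and -0.52 with stressed peaks. These are descriptions over windows of the same libraries and carry no p-value.

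Some weak peaks were called in both groups. Of the peaks outside the list on chromosome 10, 47 of 243 NSC peaks overlapped a stressed peak (19.3%, 95% Wilson interval 14.9% to 24.8%) and 49 of 291 stressed peaks overlapped an NSC peak (16.8%, 13.0% to 21.6%), the lowest shares of the 20 autosomes in both directions. On chromosome 12 the shares were 30.0% (21.1% to 40.8%) and 27.1% (19.2% to 36.7%), the latter the highest of the 20, over only 80 and 96 peaks. The other autosomes had 28.2% (27.4% to 29.0%) and 22.3% (21.6% to 22.9%) together. The intervals of chromosome 10 lay below these in both directions, though for stressed peaks their ends nearly met, at 21.56% and 21.61%. The intervals of chromosome 12 held the values of the other autosomes. The intervals of chromosomes 10 and 12 overlap each other in both directions. A stricter overlap rule lowered all of these shares, to 9.47% and 16.3% of NSC peaks on chromosomes 10 and 12 when 50% of both peaks had to coincide. The strongest recurring NSC peaks outside the list were chr10:93755450-93756066, with 10.5 in NSC and 4.76 in stressed rats, and chr10:10968030-10968382, with 10.2 and 7.68. On chromosome 12 they were chr12:12814159-12814692, with 8.89 and 7.83, and chr12:12816112-12816647, with 8.65 and 7.19, a pair within 2 kb. Recurring stressed peaks reached 8.53 in the stressed group and 8.41 in the NSC group at chr10:41860867-41861315, and 8.52 and 9.11 at chr10:28343708-28344573. On chromosome 12 they reached 9.12 and 7.52 at chr12:6618971-6619472 and 8.87 and 5.65 at chr12:22003335-22003603.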

How the data were processed

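GR ChIP-seq was performed on whole hippocampus in NSC and stressed rats, and groups were taken from the sample labels. Per the study's methods, the authors called peaks with Hotspot from Bowtie2 (version not given in the sources used here) alignments to rn5 and kept those found in both replicates. Duplicate reads and simple repeats do not contribute to these peaks, and tag density is relative to the input libraries. The deposited maximum tag density is a coverage signal with 1 combined value per peak and group, on a scale that is not stated. The merged list reaches below the top 20% that the methods name. The deposited z-score is a score of the authors' peak caller, and the p-value the authors deposited beside it was not used in any comparison. The lists do not show the depth of any library.

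Peaks were counted per chromosome in the 3 lists, with the last listed position as the chromosome length. Peaks sharing at least 1 bp were treated as overlapping, and the highest peak of each group in a merged region gave its tag density. Tag density classes and windows of 5 Mb were set after the data were seen. Shares have 95% Wilson intervals and medians have order-statistic intervals, both over regions and without replicate error. Ranks are among the 20 autosomes. No test was made, since each group has 1 value per peak. The chromosomes, classes and comparisons were chosen with earlier results of these data known. Named regions are, per chromosome, the 5 strongest, the 3 ratios furthest from 0 in each direction, the 3 strongest of 1 group only, the largest group of neighbours within 10 kb, the 2 strongest recurring peaks of each group outside the list and those at its limits. Other overlap rules, the top 20% and top 10%, other lengths and scaling were tried as alternatives. Lengths without windows that hold no peak were added after the data were seen. Simulated data were used to check overlaps and ratios, and these steps were tested on planted sites. Gene names and gene counts come from RefSeq on GRCr8, a different build, so no gene was placed on a region and no motif was searched. Primer sequences are those of the study. Python 3.11.15, numpy 2.4.6, scipy 1.17.1, pandas 2.3.3 and matplotlib 3.10.9 were used.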

Additional observations from a re-analysis of the deposited data

How the results depend on the processing

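No paired analysis was possible because the replicates of a group were combined in the lists, and for the same reason no fit without a replicate or with a replicate block was run. The motif search was not run, since it needs the rn5 sequence. In each sentence below, values are for chromosome 10, chromosome 12 and, where 3 are given, the other autosomes. Chromosomes 12 and 10 kept the first and second place in merged regions per Mb, and the last and second to last in peaks outside the list per Mb, under every alternative tried for these densities. Lengths without empty windows, chosen after the data were seen, are among these. With the joined top 20% of each group there were 3.48, 3.48 and 1.87 regions per Mb.

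The share of NSC peaks counted as strong was 45.4%, 55.9% and 20.03% with the top 20% and 21.9%, 28.9% and 10.04% with the top 10%. For stressed peaks it was 52.0%, 58.7% and 19.999%, and 26.2%, 34.6% and 9.92%. Both follow from keeping fewer peaks. Recurrence of NSC peaks outside the list was 9.47%, 16.3% and 13.1% with 50% overlap and 7.82%, 17.5% and 12.4% with centres within 100 bp. For stressed peaks it was 7.90%, 13.5% and 10.2%, and 6.53%, 13.5% and 9.69%. A stricter overlap lowers a share by construction.

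The share of merged regions with both peaks was 73.5%, 76.1% and 70.6% in the joined top 20%, and on the other autosomes 54.7% with 50% overlap and 53.2% with centres within 100 bp. Median tag density was 23.3, 25.9 and 22.7 in regions with both peaks and 20.9, 24.1 and 20.7 in the joined top 20%. The median log2 ratio was 0.075, 0.066 and 0.052 with each group divided by its median, and 0.068 on the other autosomes over every pair of overlapping peaks. For these the cause was not tested. A limit of 1.5-fold gave 21 and 15 regions higher and 6 and 1 lower in the stressed group, where the whole list had 8.34% and 3.07%, and 50% overlap left 1 higher and 0 lower on chromosome 10. Within 50 kb, 56.8%, 48.2% and 45.3% of regions had a neighbour. The unknown depth limits every count, since the counting error of a peak cannot be given.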
